A study of Mus musculus with 20 samples.

Results

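The cardiac response to isoproterenol was described in wild-type (WT) hearts, from 10 libraries whose labels read WT with isoproterenol (5) or WT with vehicle (5), out of 20 in the series. The other 10 libraries came from hearts of OGFOD1-knockout (KO) mice and enter below only in the fit and in 1 comparison of responses. All mice were C57BL/6N, aged 3 to 5 months and fed an NIH-31 diet. The vehicle group had received phosphate-buffered saline with sodium ascorbate from an osmotic minipump, a small implanted device that releases drug steadily, for 2 weeks. The isoproterenol group had received isoproterenol in the same solution. RNA was taken from powdered whole hearts and turned into stranded libraries of total RNA, so that atria, ventricles, vessels and all other cells of the organ contribute. In such bulk samples more cells of a type and more RNA per cell cannot be told apart. Nothing in the labels ties the libraries of a group to separate mice, and p-values therefore measure the spread between libraries, which may be technical in part.

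Isoproterenol is a synthetic catecholamine that activates beta-adrenergic receptors. In cardiac myocytes these receptors act through the G protein Gs and adenylyl cyclase, which makes cyclic AMP (cAMP). The cAMP activates protein kinase A, which phosphorylates calcium channels, sarcomere proteins and glycogen-metabolising enzymes and so speeds contraction and fuel supply. Phosphodiesterases break cAMP down, receptor kinases and arrestins switch the receptors off, and prolonged stimulation is a common model of cardiac enlargement and fibrosis.

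Total counts ran from 14609808 to 43671055 in the 10 WT libraries, of which 55.5% to 60.8% came from the mitochondrial genome. WT vehicle replicate 2 stood apart in several transcripts, Gm42418, Lars2 and mt-Rnr1 among them. It measured 9505 counts per 1000000 (CPM) of Gm42418, against 132 to 198 CPM in the other 9 libraries, and 581 CPM of Lars2, against 9.16 to 19.1 CPM. Of mt-Rnr1, a ribosomal RNA of mitochondria, it held 120771 CPM, against 44984 to 55875 CPM. Over the genes compared it also differed more from its replicates than other WT pairs did. Calls below were therefore also made without it. Below, libraries are named by treatment and replicate number, as in vehicle 2. Transcripts that define heart muscle were abundant in all 10 libraries, with 64085 to 77523 CPM over 10 cardiomyocyte markers, as the tissue label says. Skeletal muscle was represented by 4 tested markers of 12, and Myh1, Myh2 and Myh4 were among the 8 too low to test.

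Enough counts for a test were found for 14878 of 55335 annotated genes. Isoproterenol raised 691 genes (4.64% of those tested) and lowered 613 (4.12%), or 8.76% in either direction, with edgeR's quasi-likelihood test and a Benjamini-Hochberg adjusted p under 0.05. Most changes were moderate. Of the rises, 161 were under 1.25-fold, 300 were 1.25- to 1.5-fold, 159 were 1.5- to 2-fold and 71 were 2-fold or more, and the median was 1.37-fold. Of the falls, 213, 245, 107 and 48 fell in the same classes, and the median was 1.32-fold. In 442 of the 691 rises all 5 isoproterenol libraries lay above all 5 vehicle libraries, an order that 639 of all tested genes (4.29%) had. In 378 of the 613 falls they all lay below, as in 558 of all tested genes (3.75%), so that 8.05% of tested genes had groups without overlap in either direction. A call was made in each of 22 alternative analyses for 312 rises and 219 falls. Without isoproterenol 4, 398 genes were lower in place of 613, and with library sizes alone in place of TMM scaling (edgeR's trimmed mean factors) 561 were higher and 296 lower. The smallest counts in those 22 analyses were 466 higher and 296 lower. Beside the lists below, counts that moved by over 1.5 times are given with the library whose removal moved them. Ranges called other settings are over the 12 alternatives that change the model, scaling, filter or tool or leave out 2 libraries at once. Surrogate variables among them are hidden factors estimated from the counts.

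**Figure D1:**
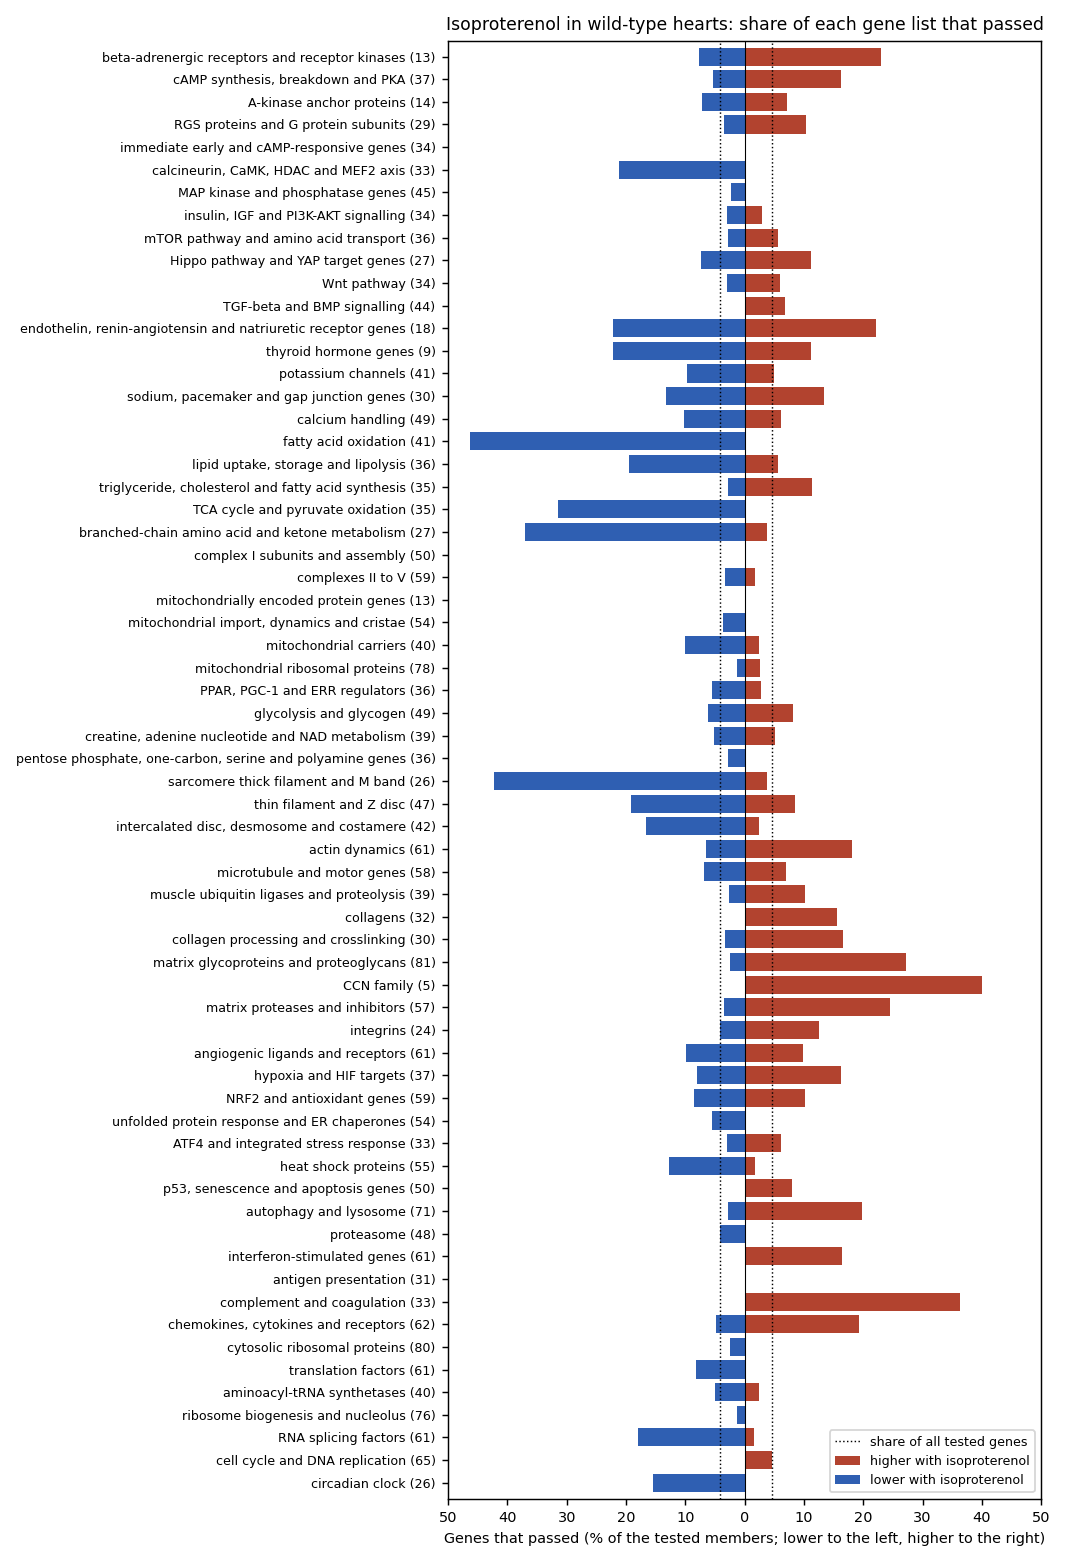
Share of the tested members of each gene list that passed the edgeR test, in percent, with lower genes to the left and higher genes to the right. Lists of cell type markers and lists added after values were seen are not drawn. The number of tested members stands in brackets and dotted lines mark the shares over all tested genes, 4.12% and 4.64%. Of the lists drawn, fatty acid oxidation, thick filament and branched-chain amino acid genes reach farthest to the left, and CCN, complement and matrix glycoprotein genes to the right.

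The receptor kinase genes Grk5 and Grk3 and the phosphodiesterase gene Pde8a rose, while the gene of the main beta receptor of myocytes did not pass. Of 13 tested genes of adrenergic receptors, receptor kinases and arrestins, 3 rose and 1 fell, beside 4.64% and 4.12% of all tested genes. The list median log2 fold change was 0.00 and its sign changed in 7 alternatives. The falls numbered 2 without vehicle 1 and 2 without the low-count filter. Grk5, a kinase that phosphorylates agonist-occupied receptors, measured 17.9, 23.9, 19.1, 17.7 and 19.6 CPM in vehicle libraries 1 to 5 and 33.4, 32.8, 33.8, 29.9 and 26.4 CPM in isoproterenol libraries 1 to 5. All isoproterenol values lay above the vehicle values (log2 fold change 0.68, SE 0.0984, adjusted p = 4.1e-05). The related kinase gene Grk3 rose (log2 fold change 0.45, SE 0.0958, adjusted p = 0.003). Adra1a, the alpha-1A receptor, measured 26, 31.4, 31.4, 25.1 and 27.2 CPM with vehicle and 17, 18.4, 20.7, 21 and 19.4 CPM with isoproterenol, and every isoproterenol library was below every vehicle library (log2 fold change −0.54, SE 0.0751, adjusted p = 1.69e-05). Adrb1, the main beta receptor of myocytes, measured 2.86, 4.96, 5.49, 5.87 and 5.85 CPM with vehicle and 3.06, 4.37, 3.5, 2.72 and 4.26 CPM with isoproterenol. Its groups overlapped and it did not pass (log2 fold change −0.51, SE 0.222, adjusted p = 0.168).

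Of 37 tested genes for cAMP synthesis, breakdown and its binding proteins, 6 rose and 2 fell, beside 4.64% and 4.12% of all tested genes. The list median log2 fold change was 0.10, against 0.00 over all tested genes. The rises were small. They included the phosphodiesterase gene Pde8a (log2 fold change 0.31, SE 0.0777, adjusted p = 0.0112) and Popdc3, which encodes a cAMP-binding membrane protein (0.44, SE 0.0966, adjusted p = 0.00353). Adcy6, a main cyclase of the myocyte, and Prkaca, the catalytic subunit of protein kinase A, fell by 0.31 and 0.28 on the log2 scale (adjusted p = 0.0201 and 0.0312). The falls numbered 0 without isoproterenol 1, 3 or 4 or vehicle 2 or 4, 1 without vehicle 3, and 0 to 2 under other settings. Among 29 RGS proteins and G protein subunits, 3 rose and 1 fell, beside 4.64% and 4.12% of all tested genes. The rises of this list numbered 1 without isoproterenol 2 and 1 with library sizes alone. Its falls numbered 2 without vehicle 1 and 2 without the low-count filter. Gnb3, a beta subunit of heterotrimeric G proteins, measured 3.57, 2.52, 3.06, 3.24 and 2.47 CPM with vehicle and 1.91, 1.16, 1.8, 1.17 and 1.4 CPM with isoproterenol, with no overlap (log2 fold change −1.03, SE 0.171, adjusted p = 0.000169). Rgs5, a regulator of G protein signalling that is abundant in pericytes, rose (log2 fold change 0.43, SE 0.0633, adjusted p = 3.37e-05).

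None of 34 immediate early and cAMP-responsive genes passed in either direction after 2 weeks of infusion, beside 8.76% of all tested genes. DESeq2 called 1 higher and 1 lower, and 2 of them were higher and 3 lower at an unadjusted p under 0.05. Fos, the classic immediate early gene, had values of 2.65, 2.17, 4.14, 2.16 and 2.07 CPM with vehicle and 4.91, 3.38, 3.35, 3.44 and 2.1 CPM with isoproterenol, which overlapped (log2 fold change 0.37, SE 0.401, adjusted p = 0.641). Nr4a1, which cAMP induces in many cells, spread widely in both groups (log2 fold change −0.11, SE 0.362, adjusted p = 0.902). Of 33 genes of the calcineurin, CaM kinase, class IIa HDAC and MEF2 axis 7 fell and none rose. Over all tested genes 4.12% fell and 4.64% rose. At an unadjusted p under 0.05, 1 gene of the axis was higher, and DESeq2 called 1 higher. Nfatc2, a calcineurin-dependent transcription factor, measured 10.5, 14.5, 9.52, 16 and 11.3 CPM with vehicle and 7.1, 8.43, 7.3, 6 and 6.29 CPM with isoproterenol. These groups did not overlap (log2 fold change −0.81, SE 0.134, adjusted p = 0.000227). Sik3, a kinase of class IIa HDACs that protein kinase A inhibits, fell by 0.43 on the log2 scale (adjusted p = 0.000719), and Myocd, a coactivator of serum response factor, by 0.37 (adjusted p = 0.00453). The falls of the axis numbered 4 without vehicle 1 or 4 and 3 with library sizes alone. Of 45 MAP kinase and phosphatase genes only Mapk14 passed (log2 fold change −0.31, SE 0.0768, adjusted p = 0.00909). None rose, although 5 were higher at an unadjusted p under 0.05, and DESeq2 called none higher. The falls numbered 0 without vehicle 3, 2 without isoproterenol 2 or vehicle 1 or 5, and 0 to 2 under other settings.

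The cAMP response element, the palindrome TGACGTCA bound by CREB proteins, was looked for in the promoters of changed genes. Promoter windows of 250 bases before to 50 bases after the gene start were found by symbol for 10425 of the 14878 tested genes in RefSeq (GRCm38.p6), and both strands were read. The element was in 3.45% of promoters of genes that rose (18 of 521), 2.50% of those that fell (11 of 440) and 3.41% of all (356 of 10425). Stretches of 100 bases around it are shown for 3 genes of the pathways described here, chosen after their values were seen, with the element in capitals. That of Dio2 lies on chromosome 12 from 90739079 to 90739178 (minus strand), that of Ldha on chromosome 7 from 46845747 to 46845846 (plus strand) and that of Mdh2 on chromosome 5 from 135778477 to 135778576 (plus strand).
Dio2: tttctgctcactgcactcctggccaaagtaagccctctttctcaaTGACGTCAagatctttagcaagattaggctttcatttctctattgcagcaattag
Ldha: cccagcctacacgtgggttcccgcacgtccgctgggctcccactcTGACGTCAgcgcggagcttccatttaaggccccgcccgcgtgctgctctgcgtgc
Mdh2: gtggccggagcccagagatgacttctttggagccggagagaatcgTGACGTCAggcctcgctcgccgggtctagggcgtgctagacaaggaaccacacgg
The 3 genes did not move together. Dio2, the deiodinase that makes active thyroid hormone inside cells and is induced by cAMP in brown fat, measured 2.24, 1.33, 1.01, 1.18 and 1.48 CPM with vehicle and 5.89, 4.79, 3, 3.07 and 2.65 CPM with isoproterenol (log2 fold change 1.42, SE 0.292, adjusted p = 0.00361). Ldha, the lactate dehydrogenase A subunit, rose (log2 fold change 0.31, SE 0.0597, adjusted p = 0.00105), and Mdh2, the malate dehydrogenase of mitochondria, fell by 0.34 on the log2 scale (adjusted p = 0.00995), a call lost with 2 surrogate variables added to the model. Of other motifs, the AP-1 site TGANTCA was in 5.37% of promoters of rises, 6.36% of those of falls and 6.20% of all. The NRF1 site, for nuclear respiratory factor 1, was in 7.87%, 9.55% and 11.0%, and the ERR element TNAAGGTCA, for oestrogen-related receptors, in 0.960%, 0.909% and 0.902%.

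Genes of fuel oxidation in mitochondria were lower with isoproterenol. Of 41 fatty acid oxidation genes 19 fell and none rose, with a median log2 fold change of −0.27. At an unadjusted p under 0.05, 1 was higher, and DESeq2 called none higher. Without single libraries 14 to 20 fell. Hadh (ENSMUSG00000027984; GRCm38 chromosome 3, 131233419 to 131272101), the dehydrogenase of the penultimate step of beta-oxidation, measured 169, 156, 190, 177 and 195 CPM with vehicle and 118, 117, 114, 113 and 137 CPM with isoproterenol. The highest isoproterenol library stayed below the lowest vehicle library (log2 fold change −0.57, SE 0.066, adjusted p = 1.33e-06). Decr1 (ENSMUSG00000028223; GRCm38 chromosome 4, 15917240 to 15945507), which prepares unsaturated fatty acids for oxidation, had values of 166, 179, 161, 153 and 187 CPM with vehicle and 123, 115, 120, 114 and 124 CPM with isoproterenol, again without overlap (log2 fold change −0.50, SE 0.0679, adjusted p = 1.18e-05). Both subunits of the trifunctional protein, Hadha and Hadhb, fell by 0.44 on the log2 scale. The auxiliary isomerases Ech1 and Eci1 both fell by 0.54, the carnitine palmitoyltransferase gene Cpt2 by 0.38 and the medium-chain dehydrogenase gene Acadm fell by 0.42, each called in all 22 alternatives.

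Genes of the citric acid cycle and of branched-chain amino acid breakdown also fell. Of 35 genes of the citric acid cycle and pyruvate oxidation 11 fell and none rose (1 was higher at an unadjusted p under 0.05, and DESeq2 called none higher), with a median of −0.16. The falls numbered 9 to 19 under other settings. Ogdhl (ENSMUSG00000021913; GRCm38 chromosome 14, 32322019 to 32348151), a relative of the 2-oxoglutarate dehydrogenase subunit, measured 49.9, 57.2, 52.1, 54.7 and 51.4 CPM with vehicle and 27.8, 28.9, 26.1, 26.8 and 19.4 CPM with isoproterenol. It was about 2-fold lower with no overlap (log2 fold change −1.03, SE 0.096, adjusted p = 4.91e-08). Pdp2, a phosphatase that activates pyruvate dehydrogenase, measured 37.8, 34.7, 25.9, 32.2 and 30.5 CPM with vehicle and 22.9, 20.3, 18.9, 19.9 and 20.4 CPM with isoproterenol (log2 fold change −0.65, SE 0.091, adjusted p = 1.9e-05). Pdk2, a kinase with the opposite action on that enzyme, also fell (−0.42, SE 0.0824, adjusted p = 0.00115). Smaller falls were those of Cs, citrate synthase (−0.32), Idh2, an isocitrate dehydrogenase (−0.33), and Sdha, a subunit of succinate dehydrogenase (−0.29). Of 27 genes for branched-chain amino acid and ketone metabolism 10 fell and 1 rose, with a median of −0.20. Ivd, isovaleryl-CoA dehydrogenase of leucine breakdown, measured 110, 112, 117, 106 and 119 CPM with vehicle and 80, 81.9, 81.2, 82.7 and 83.3 CPM with isoproterenol, tight groups with a clear gap (log2 fold change −0.46, SE 0.0653, adjusted p = 2.11e-05). Bcat2, Pccb, Mccc2 and Dbt of the same pathways fell by 0.40, 0.39, 0.36 and 0.39 on the log2 scale. Bdh1, a ketone body dehydrogenase, was the gene that rose (0.46, SE 0.118, adjusted p = 0.0178), but not without isoproterenol 3 or vehicle 4.

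**Figure D2:**
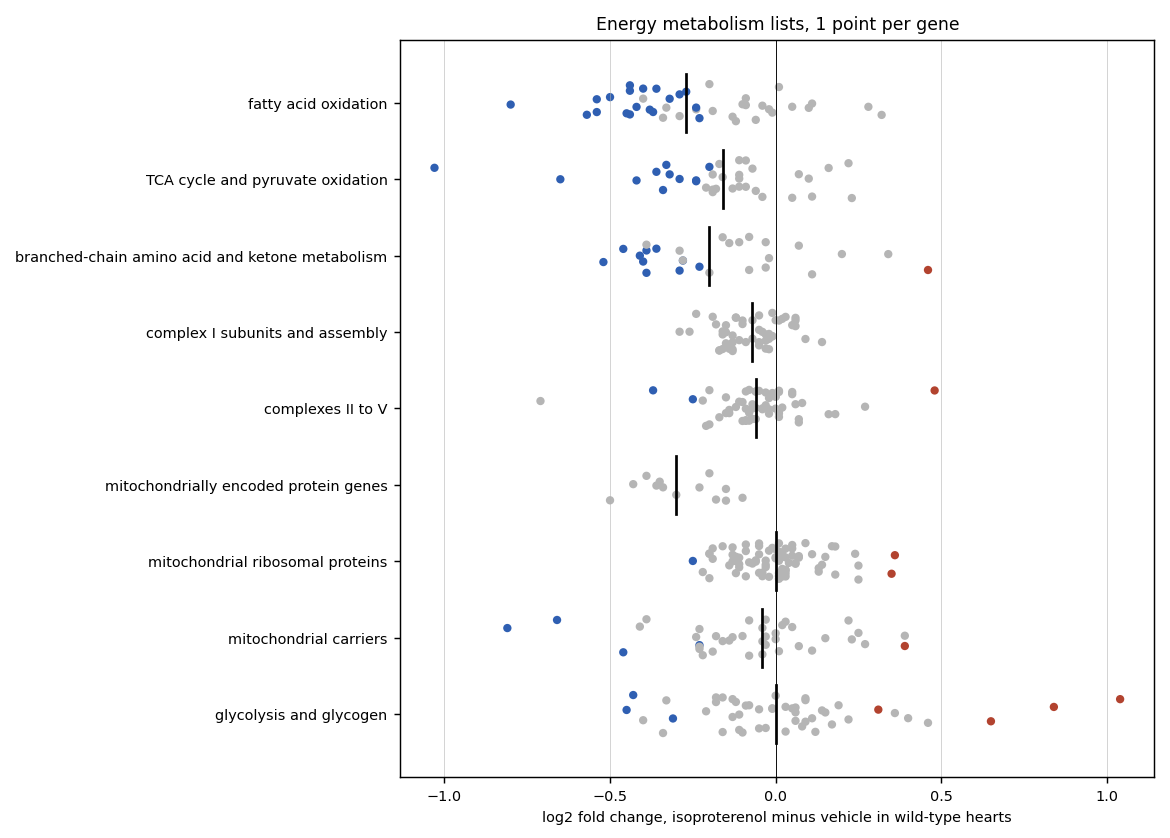
Log2 fold change of each tested gene, isoproterenol minus vehicle, in 9 lists of energy metabolism. Blue points fell, red points rose and grey points did not pass, and black bars are medians. Fatty acid oxidation has 19 blue points of 41, and complex I has none of 50.

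Few genes of the respiratory chain passed, beside 8.76% of all tested genes. None of 50 complex I genes passed, with a median of −0.07 and all values between −0.29 and 0.14. DESeq2 called 1 lower, and 4 of them were lower and none higher at an unadjusted p under 0.05. With 2 surrogate variables added to the model 11 were lower, and 4 without vehicle 2 and KO isoproterenol 5. Ndufs1, a core subunit, measured 279, 252, 277, 258 and 279 CPM with vehicle and 236, 240, 250, 246 and 261 CPM with isoproterenol, which overlapped (log2 fold change −0.13, SE 0.0639, adjusted p = 0.233). Of 59 genes of complexes II to V, 2 fell and 1 rose, counts that changed in the alternatives. The falls numbered 1 without isoproterenol 1 or vehicle 3 or 5, 4 without isoproterenol 5, and 2 to 11 under other settings, and the rises 0 without isoproterenol 2, 4 or 5 or vehicle 1, 2, 3 or 4, 2 without isoproterenol 1, and 0 to 2 under other settings. Atpif1, the inhibitor of the ATP synthase, fell in all alternatives (−0.37, SE 0.0719, adjusted p = 0.00111). The 13 mitochondrially encoded protein genes had a median of −0.30 and values from −0.50 to −0.10, and none passed. Sums of these genes in the 5 libraries of each group overlapped, at 89036 to 109502 CPM with vehicle and 75726 to 96133 CPM with isoproterenol. At an unadjusted p under 0.05, 5 of the 13 were lower and DESeq2 called 1. Of 78 mitochondrial ribosomal protein genes 2 rose and 1 fell, with Mrps18a the rise called throughout (0.35, SE 0.0825, adjusted p = 0.00663). The rises numbered 1 without isoproterenol 1, 2, 3, 4 or 5 or vehicle 1, 3 or 4, and the falls 0 without isoproterenol 1, 2, 3 or 4 or vehicle 4 or 5, 2 without isoproterenol 5, and 0 to 4 under other settings. Among 40 carriers of the inner membrane 4 fell and 1 rose. The rises of carriers numbered 0 without isoproterenol 3, 4 or 5 or vehicle 1, 2 or 4 and 0 to 1 under other settings. Slc25a34, a carrier of mitochondria in muscle, was the clearest fall (−0.66, SE 0.0754, adjusted p = 9.42e-07). Vwa8, a mitochondrial protein of the ATPase class, measured 149, 160, 152, 152 and 158 CPM with vehicle and 103, 94.2, 101, 96.4 and 106 CPM with isoproterenol, with no overlap (log2 fold change −0.63, SE 0.0601, adjusted p = 3.03e-08).

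Regulators that act upstream of these genes passed at about the share of all tested genes, 8.76%. Of 36 PPAR, PGC-1 and ERR regulators, 1 rose and 2 fell, and all 3 calls were lost in some alternatives. The falls numbered 0 without isoproterenol 1 or 4 or vehicle 2 or 4, 1 without isoproterenol 3 or 5 or vehicle 5, and 0 to 4 under other settings, and the rises 0 without isoproterenol 2, 4 or 5 or vehicle 1, 2, 4 or 5 and 0 to 1 under other settings. Ppargc1a, the coactivator PGC-1alpha, measured 241, 204, 180, 229 and 163 CPM with vehicle and 201, 229, 173, 252 and 188 CPM with isoproterenol (log2 fold change 0.04, SE 0.125, adjusted p = 0.902). Ppara, the receptor that drives fatty acid oxidation genes, did not pass (log2 fold change −0.24, SE 0.0906, adjusted p = 0.0912). Summed cardiomyocyte markers moved with the metabolic lists. The 10 markers, none of them at 0, summed to 73117 to 77523 CPM with vehicle and 64085 to 68475 CPM with isoproterenol. Among them Myh6, Myl2 and Myl3 fell, a count that was 5 with 2 surrogate variables, and the median of the 10 was −0.10. The part of these markers in the falls of fuel genes was not tested.

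Genes of lipid uptake and storage also fell. Of 36 genes 7 fell and 2 rose, with a median of −0.07, and the rises numbered 1 without isoproterenol 1. Dgat2, which completes triglyceride synthesis, fell (log2 fold change −0.46, SE 0.0806, adjusted p = 0.000317). Pnpla2, the lipase that starts triglyceride breakdown, Slc27a1, a fatty acid transporter, and Fabp3, the heart fatty acid binding protein, fell by 0.41, 0.43 and 0.31 on the log2 scale. Gpat3, an acyltransferase of glycerolipid synthesis, fell by 0.66 (adjusted p = 0.00105). In the list of triglyceride, cholesterol and fatty acid synthesis 4 of 35 rose and 1 fell, beside 4.64% and 4.12% of all tested genes. Scd2, a stearoyl-CoA desaturase, rose (0.47, SE 0.0839, adjusted p = 0.000461) and Me1, the cytosolic malic enzyme, fell (−0.40, SE 0.0896, adjusted p = 0.00456). The rises of this list numbered 1 without isoproterenol 4 or vehicle 3, 2 without vehicle 2, 4 or 5, and 1 to 5 under other settings, and the falls 2 without isoproterenol 1 and 2 in limma-voom with quality weights.

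Of the 5 subunit genes of phosphorylase kinase, the enzyme that activates glycogen breakdown, 2 rose. These genes were picked after their values were seen. Of 49 genes of glycolysis and glycogen 4 rose and 3 fell, with a median of 0.00. Phkg1 (ENSMUSG00000025537; GRCm38 chromosome 5, 129863421 to 129898549) encodes a catalytic subunit of the kinase, through which protein kinase A and calcium activate glycogen phosphorylase. It measured 12.7, 12.2, 15.3, 14.8 and 11.6 CPM with vehicle and 30.4, 28.6, 23.9, 28.8 and 25.2 CPM with isoproterenol, and every isoproterenol library was above every vehicle library (log2 fold change 1.04, SE 0.0869, adjusted p = 2.01e-09). Phka1, a regulatory subunit of the same enzyme, measured 53, 57.1, 52.1, 57 and 52.9 CPM with vehicle and 80.6, 71.7, 89.1, 95.3 and 89.6 CPM with isoproterenol (log2 fold change 0.65, SE 0.0903, adjusted p = 2.49e-05). The genes of the other alpha subunit, the beta subunit and the other gamma subunit, Phka2, Phkb and Phkg2, did not pass, with log2 fold changes of −0.09, −0.11 and 0.03. Hk2, the hexokinase that traps glucose in the cell, measured 147, 182, 145, 166 and 140 CPM with vehicle and 115, 121, 113, 110 and 111 CPM with isoproterenol, a fall without overlap (log2 fold change −0.45, SE 0.0686, adjusted p = 5.56e-05). Lactate dehydrogenase subunits diverged, with Ldha higher (104, 112, 116, 110 and 117 CPM with vehicle and 128, 138, 147, 130 and 149 CPM with isoproterenol) and Ldhb lower (log2 fold change −0.31, SE 0.0807, adjusted p = 0.0135). The call of Ldhb was lost without vehicle 2. The falls of the list numbered 6 without isoproterenol 5 and 3 to 8 under other settings. Fbp2, the muscle fructose bisphosphatase, had only 9.79, 9.85, 11.4, 8.44 and 11.2 CPM with vehicle and 7.39, 4.88, 5.55, 5.27 and 5.17 CPM with isoproterenol, still without overlap (log2 fold change −0.85, SE 0.119, adjusted p = 2e-05).

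Of 39 tested genes of creatine, adenine nucleotide and NAD metabolism 2 rose and 2 fell, beside 4.64% and 4.12% of all tested genes. Ckb, the brain-type creatine kinase, measured 17.5, 14.5, 17.3, 17.4 and 17.9 CPM with vehicle and 27.7, 28, 27, 24.6 and 23.1 CPM with isoproterenol (log2 fold change 0.62, SE 0.0776, adjusted p = 3.93e-06). The other 38 tested genes of creatine, adenine nucleotide and NAD metabolism held 1 further rise, Adssl1, and the falls of Adk and Parp1. Adssl1 was called in only 5 of the 22 alternatives, and the rises numbered 1 without isoproterenol 1, 2 or 5 or vehicle 1, 2 or 5 and 1 to 3 under other settings. The falls numbered 1 without isoproterenol 3 or 4 or vehicle 5 and 0 to 4 under other settings. Odc1, ornithine decarboxylase of polyamine synthesis, measured 25.9, 28.5, 26.8, 27.5 and 27.7 CPM with vehicle and 17.8, 16, 18.6, 20.6 and 20.4 CPM with isoproterenol (log2 fold change −0.55, SE 0.0827, adjusted p = 5.5e-05), and it was the only one of 36 genes of pentose phosphate, one-carbon, serine and polyamine metabolism to pass (1 was higher at an unadjusted p under 0.05, none with DESeq2). The falls there numbered 3 in limma-voom with quality weights.

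The moderate changes with the smallest p over all tested genes are shown by library. They are the 15 rises and 15 falls with the smallest p among genes that passed with a fold of at most 2, a mean level of 2 or more in log2 CPM and groups without overlap, and all 30 were called in every alternative. The plot shows 29 of them. Nudt4 (ENSMUSG00000020029; GRCm38 chromosome 10, 95547007 to 95564146), a phosphatase of inositol pyrophosphates, measured 131, 150, 136, 148 and 136 CPM with vehicle and 252, 284, 282, 252 and 269 CPM with isoproterenol (log2 fold change 0.94, SE 0.0576, adjusted p = 2.87e-12). Fgf1 (ENSMUSG00000036585; GRCm38 chromosome 18, 38838673 to 38929472), an acidic fibroblast growth factor, measured 176, 180, 164, 173 and 165 CPM with vehicle and 99.2, 107, 98.9, 112 and 105 CPM with isoproterenol (log2 fold change −0.72, SE 0.0649, adjusted p = 9.93e-09). In both genes the spread within a group was small beside the gap between groups. Pam, the amidating enzyme of peptide hormones that is abundant in atrial granules, measured 700, 595, 703, 659 and 673 CPM with vehicle and 946, 919, 952, 925 and 911 CPM with isoproterenol (log2 fold change 0.48, SE 0.059, adjusted p = 2.43e-06). The sum of the 13 tested atrial markers was 1533 to 1875 CPM with vehicle and 2016 to 2132 CPM with isoproterenol, and without Pam it was 937 to 1173 and 1091 to 1222 CPM, so that the groups overlapped. The other 12 tested atrial myocyte genes did not pass, although rises of this list numbered 1 to 3 under other settings. Further rises were those of Atrnl1, an attractin-like membrane protein (0.67), Slc26a10 of the anion transporter family (0.82), Lgals3bp, a secreted galectin partner (0.61), and Sulf2, which trims sulfates from heparan sulfate (0.51). Paqr9 of the progestin and adipoQ receptor family fell by 0.59 on the log2 scale, and Actr3b, an actin-related protein, by 0.80.

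**Figure D3:**
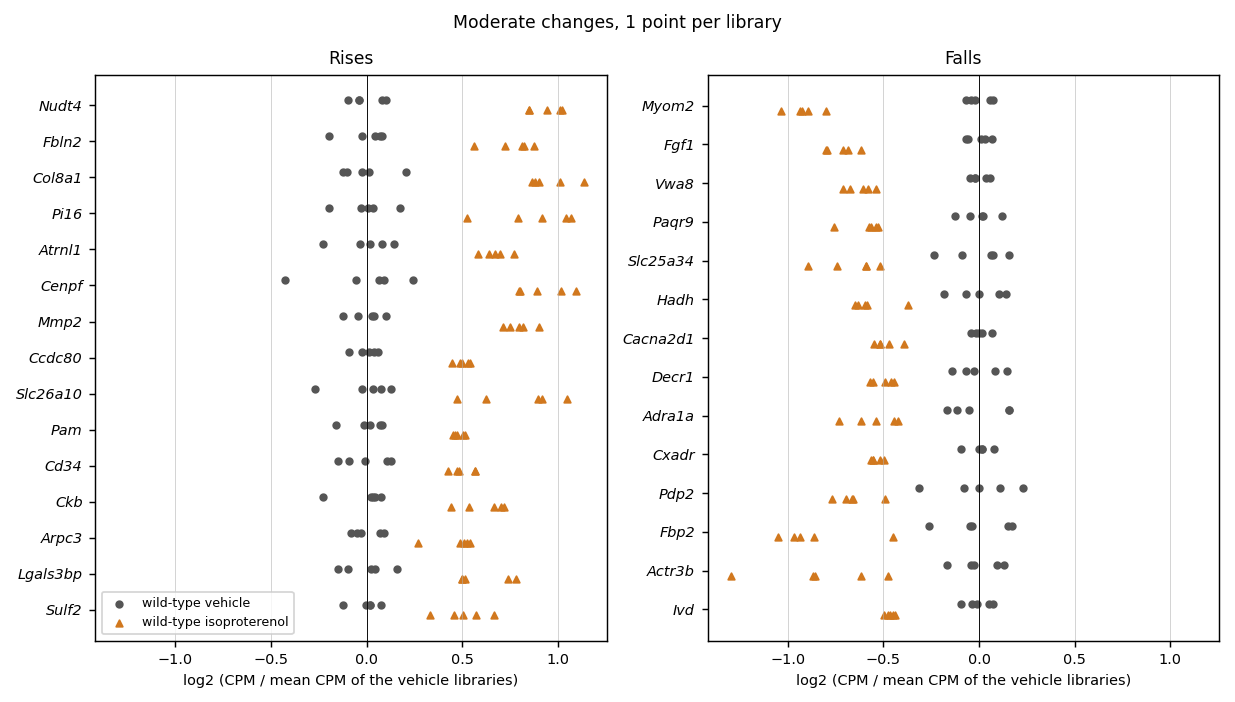
Level of 29 genes in each WT library, as log2 of its CPM over the mean CPM of the 5 vehicle libraries. Circles are vehicle and triangles isoproterenol libraries. In each gene the 5 triangles lie on one side of the 5 circles, with Nudt4 and Col8a1 near 1 and Myom2 near −1.

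Sarcomere genes fell in the thick filament and in the thin filament. Of 26 thick filament and M-band genes 11 fell and 1 rose, with a median of −0.21, and 9 to 12 fell when single libraries were left out. Myom2 (ENSMUSG00000031461; GRCm38 chromosome 8, 15057653 to 15133541), a myomesin that crosslinks thick filaments in the M band, measured 899, 852, 908, 824 and 838 CPM with vehicle and 454, 464, 452, 497 and 421 CPM with isoproterenol. Isoproterenol libraries were the lower ones with no overlap (log2 fold change −0.92, SE 0.0808, adjusted p = 6.3e-09). Mylk4 of the myosin light chain kinase family and the ventricular light chain gene Myl2 fell by 1.20 and 0.40 on the log2 scale. Mylk3, the cardiac light chain kinase, rose (log2 fold change 0.25, SE 0.0678, adjusted p = 0.0174), but not without isoproterenol 4. Of 47 thin filament and Z-disc genes 9 fell and 4 rose, with a median of −0.08; the falls numbered 4 without isoproterenol 1 or 3 or vehicle 4, 5 without isoproterenol 4 or vehicle 3 or 5, and 4 with library sizes alone. Myoz2, a calsarcin of the Z disc, fell (−0.45, SE 0.0851, adjusted p = 0.000831) and Klhl40, which stabilises thin filament proteins, rose (0.70, SE 0.115, adjusted p = 0.000148). The difference between the lists was not tested.

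Cell contact genes fell and several actin regulators rose. Of 42 genes of the intercalated disc, desmosome and costamere 7 fell and 1 rose, and the falls numbered 4 with library sizes alone. Cxadr, the coxsackievirus and adenovirus receptor of the disc, measured 17.3, 18.7, 19.5, 18.5 and 18.7 CPM with vehicle and 13.1, 12.6, 12.6, 12.5 and 12.9 CPM with isoproterenol, and all isoproterenol libraries were lower (log2 fold change −0.55, SE 0.0759, adjusted p = 1.84e-05). Dsp, desmoplakin, fell (log2 fold change −0.33, SE 0.0579, adjusted p = 0.000342). The rise was that of Lims2, an adaptor of integrin adhesions, and the rises numbered 0 without isoproterenol 2 or 4 or vehicle 2 or 4, 2 without isoproterenol 5 or vehicle 5, 3 without isoproterenol 1, and 0 to 2 under other settings. Of 61 genes of actin dynamics 11 rose and 4 fell, against 4.64% and 4.12% of all genes. Arpc3, a subunit of the branching Arp2/3 complex, measured 29.3, 26, 26.6, 26.9 and 28.9 CPM with vehicle and 40, 33.1, 38.6, 39.1 and 39.5 CPM with isoproterenol (log2 fold change 0.46, SE 0.0611, adjusted p = 8.58e-06). Arhgdib, an inhibitor of small GTPases in blood cells, and Arpc1b rose by 0.47 and 0.31, while Ezr, the membrane linker ezrin, and Myo18b, a muscle myosin, fell by 0.42 and 0.43 on the log2 scale. The rises numbered 7 without vehicle 4 and the falls 2 without isoproterenol 4 and 2 to 4 under other settings.

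Microtubule genes were led by Mtus2 and Cenpf. Mtus2, a microtubule-associated protein, measured 105, 92.4, 95.6, 96.6 and 93.8 CPM with vehicle and 197, 180, 210, 208 and 209 CPM with isoproterenol, about 2-fold higher with the smallest p of its list (log2 fold change 1.06, SE 0.0625, adjusted p = 2.07e-12). Cenpf, a large protein of kinetochores and of the myocyte centrosome region, measured 38.6, 43, 34.9, 37.9 and 27 CPM with vehicle and 73.5, 77.4, 63.3, 63 and 67.4 CPM with isoproterenol (log2 fold change 0.93, SE 0.0925, adjusted p = 1.46e-07). The motor gene Kif5b and the tubulin gene Tubb4b rose by 0.33 and 0.47 on the log2 scale, and Mapt, which encodes tau, fell (−0.47, SE 0.079, adjusted p = 0.000188). In all 4 of 58 rose and 4 fell, and the falls numbered 2 without isoproterenol 3 or vehicle 2 or 3 and 1 to 5 under other settings. Of 65 cell cycle and replication genes 3 rose and none fell, beside 4.64% of all tested genes higher and 4.12% lower. The rises were Cenpf, Cdk6 (0.51, SE 0.0971, adjusted p = 0.000942) and Kif11, the last not without isoproterenol 4 or vehicle 3, 4 or 5. At an unadjusted p under 0.05, 4 were lower, and DESeq2 called none lower.

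Calcium handling genes that passed numbered 8 of 49, potassium channel genes 6 of 41, and sodium, pacemaker and gap junction genes 8 of 30, beside 8.76% of all tested genes, and each list held both rises and falls. Of 49 calcium handling genes 5 fell and 3 rose, with a median of −0.03. Cacna2d1, an auxiliary subunit of voltage-gated calcium channels, measured 103, 106, 105, 107 and 111 CPM with vehicle and 72.5, 73.9, 74.1, 80.7 and 76.4 CPM with isoproterenol, without overlap (log2 fold change −0.49, SE 0.06, adjusted p = 2.37e-06). Hrc, a calcium-binding protein of the sarcoplasmic reticulum, fell (log2 fold change −0.55, SE 0.106, adjusted p = 0.00173). The falls numbered 3 without isoproterenol 1, 4 or 5 or vehicle 3 or 5 and 3 with library sizes alone, and the rises 3 to 5 under other settings. Of 41 potassium channel genes 4 fell and 2 rose. Kcnj12, an inward rectifier that sets the resting potential, measured 9.33, 10.5, 10, 11.7 and 11.7 CPM with vehicle and 4.91, 8.73, 6.35, 4.85 and 6.71 CPM with isoproterenol (log2 fold change −0.76, SE 0.129, adjusted p = 0.000222), and Kcnq1, of the slow delayed rectifier, rose (log2 fold change 0.43, SE 0.0791, adjusted p = 0.000578). The falls of potassium channel genes numbered 1 with library sizes alone. Of 30 sodium, pacemaker and gap junction genes 4 rose and 4 fell. Fxyd5, a regulator of the sodium pump, rose (0.48, SE 0.0766, adjusted p = 0.00011), and Fgf13, a partner of sodium channels, fell (−0.34, SE 0.0747, adjusted p = 0.00344). Those falls numbered 1 without isoproterenol 4 or vehicle 3 or 4, 2 without isoproterenol 5 or vehicle 5, and 1 with library sizes alone.

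Matrix genes rose across several classes of protein. Of 81 matrix glycoproteins and proteoglycans 22 rose and 2 fell, with a median of 0.20, and 16 to 22 rose without single libraries. The falls numbered 1 with library sizes alone. Fbln2 (ENSMUSG00000064080; GRCm38 chromosome 6, 91212455 to 91272540), the elastic fibre protein fibulin-2, measured 67.5, 69.3, 57.1, 64.5 and 68.8 CPM with vehicle and 120, 115, 116, 108 and 96.5 CPM with isoproterenol (log2 fold change 0.77, SE 0.064, adjusted p = 2.01e-09). Aspn, Emilin2, Vcan and Thbs3 rose by 0.92, 0.84, 0.58 and 0.76 on the log2 scale. Of 32 collagen genes 5 rose and none fell, with a median of 0.26; 2 were lower at an unadjusted p under 0.05, and DESeq2 called 1. Col8a1, a short-chain collagen, measured 13, 13.3, 12.1, 12.3 and 15.2 CPM with vehicle and 26.6, 24, 24.7, 29 and 24.3 CPM with isoproterenol (log2 fold change 0.97, SE 0.0878, adjusted p = 9.93e-09), and it was the only collagen called in all alternatives. The collagen rises numbered 2 without isoproterenol 3 or vehicle 3 or 5, 3 without isoproterenol 1, 2 or 4 or vehicle 2 or 4, 8 without isoproterenol 5, and 1 to 10 under other settings. Of 30 genes that process and crosslink collagen 5 rose and 1 fell. Loxl2, a lysyl oxidase, measured 11.5, 11.3, 8.36, 9.47 and 11.6 CPM with vehicle and 17.8, 16.3, 18.7, 18.5 and 14 CPM with isoproterenol (log2 fold change 0.72, SE 0.11, adjusted p = 6.63e-05), and Pcolce, an enhancer of procollagen cleavage, rose (log2 fold change 0.43, SE 0.0703, adjusted p = 0.000147). These rises numbered 3 without isoproterenol 1, 2 or 3 or vehicle 1 and 3 to 7 under other settings, and the falls 0 with library sizes alone.

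Proteases and their inhibitors rose together with the matrix. Of 57 tested genes 14 rose and 2 fell, with a median of 0.25. Mmp2, the gelatinase A of fibroblasts, measured 33.5, 30.1, 33.7, 31.8 and 35.2 CPM with vehicle and 56.9, 57.8, 61.2, 53.8 and 55.1 CPM with isoproterenol, and no libraries overlapped (log2 fold change 0.79, SE 0.0856, adjusted p = 3.45e-07). Timp1, a metalloproteinase inhibitor, rose (log2 fold change 0.99, SE 0.198, adjusted p = 0.00208) and Serpinf1 and Adamtsl2 rose by 0.50 and 0.80 on the log2 scale. The rises numbered 8 without vehicle 4, and the falls 1 without isoproterenol 1, 4 or 5 or vehicle 2, 4 or 5 and 1 to 3 under other settings. Among growth factor signals, the receptor genes Tgfbr1 and Tgfbr2 rose by 0.38 and 0.31 on the log2 scale (adjusted p = 0.00476 and 0.00284). They and Inhba were the 3 rises of 44 TGF-beta and BMP genes, beside 4.64% of all tested genes higher. None of the list fell, also at an unadjusted p under 0.05 and with DESeq2, beside 4.12% of all tested genes lower. Inhba was not called without isoproterenol 1, 2, 3 or 4 or vehicle 2, 3, 4 or 5. The TGF-beta and BMP rises numbered 2 to 5 under other settings. Of 34 tested Wnt genes 2 rose and 1 fell, beside 4.64% and 4.12% of all tested genes. The Wnt median was −0.02 and its sign changed in 8 alternatives. Among secreted Wnt antagonists Sfrp1 and Frzb rose by 0.63 and 0.57 and Sfrp5 fell by 1.38 on the log2 scale. The Wnt rises numbered 2 to 5 under other settings.

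Fibroblast markers moved with these genes. Of 14 fibroblast markers 5 rose and none fell, none of them at 0, with a median of 0.27. The rises numbered 5 to 8 under other settings. Their summed level was 1092 to 1206 CPM with vehicle and 1298 to 1460 CPM with isoproterenol. Pi16, a marker of adventitial fibroblasts, had the smallest p of them (log2 fold change 0.88, SE 0.084, adjusted p = 3.03e-08), whereas Col1a1 (log2 fold change 0.29, SE 0.653, adjusted p = 0.843) and Pdgfra (log2 fold change 0.17, SE 0.0644, adjusted p = 0.0922) did not pass. Of 12 tested markers of activated fibroblasts 3 rose, Cilp, Meox1 and Postn, with a list median of 0.72 (5 rose without vehicle 2 and KO isoproterenol 5 or in a fit of the WT libraries alone), and their sum was 176 to 228 CPM with vehicle and 266 to 354 CPM with isoproterenol. No member of either list was lower at an unadjusted p under 0.05, and DESeq2 called none lower. The part of these markers in the rise of matrix genes was not tested.

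**Figure D4:**
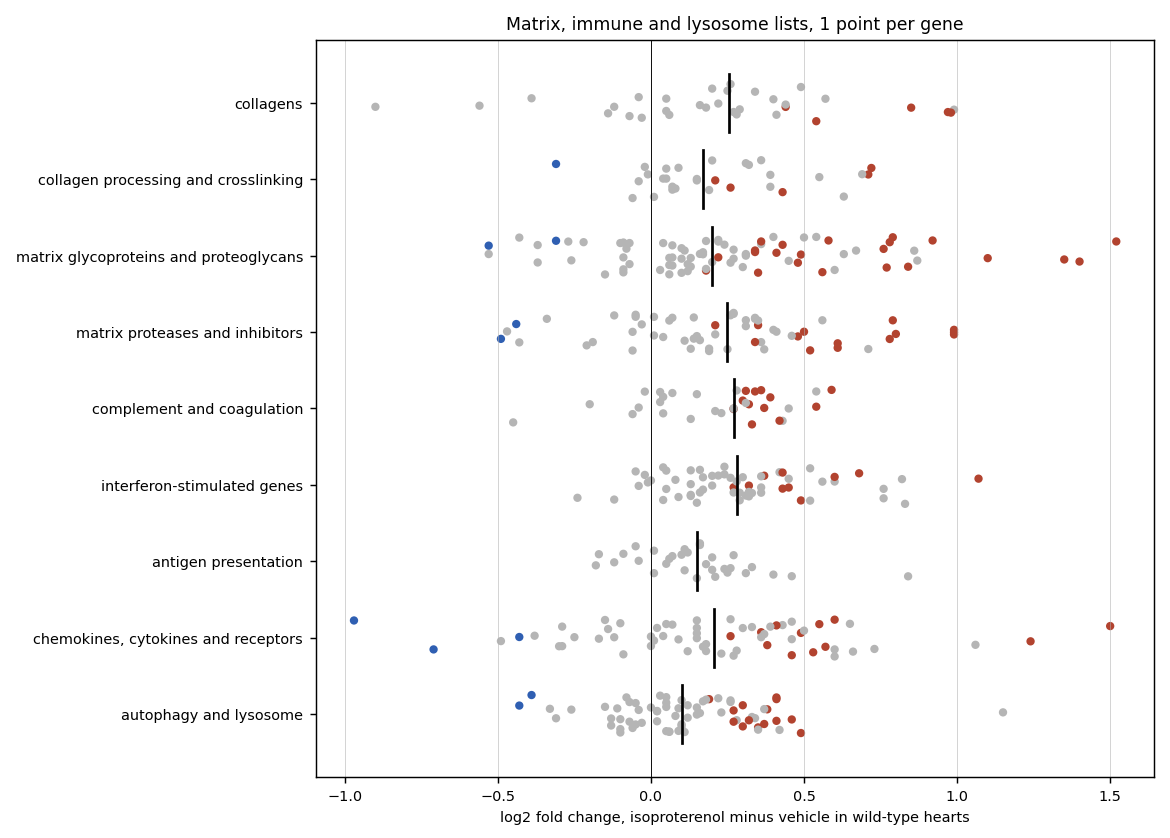
Log2 fold change of each tested gene, isoproterenol minus vehicle, in 9 lists of matrix, immune and lysosome genes. Red points rose, blue points fell, grey points did not pass, and black bars are medians. Matrix glycoproteins have 22 red points of 81, complement genes 12 of 33 and antigen presentation genes none of 31.

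Immune genes rose in complement, cytokine receptors and lysosomal proteases. Of 33 complement and coagulation genes 12 rose and none fell, with a median of 0.27; none was lower at an unadjusted p under 0.05 or with DESeq2. Serping1, the C1 inhibitor, measured 50.8, 53.4, 50.6, 50 and 49.6 CPM with vehicle and 69.7, 67.3, 69.7, 66.6 and 67.6 CPM with isoproterenol, narrow groups without overlap (log2 fold change 0.42, SE 0.0614, adjusted p = 3.24e-05). Clu, clusterin, rose by 0.30 on the log2 scale. The rises numbered 4 without vehicle 4, 6 without isoproterenol 1, and 7 without vehicle 3. Of 62 chemokines, cytokines and receptors 12 rose and 3 fell. Cysltr1, a receptor for cysteinyl leukotrienes, measured 1.02, 1.19, 1.2, 1.18 and 1.03 CPM with vehicle and 3.41, 3, 3.3, 3.16 and 3.07 CPM with isoproterenol (log2 fold change 1.5, SE 0.181, adjusted p = 2.12e-06). Alox5, the lipoxygenase that makes leukotrienes, moved the other way, at 6.63, 9.5, 7.89, 8.6 and 9.35 CPM with vehicle and 5.95, 5.61, 4.95, 4.33 and 4.89 CPM with isoproterenol (log2 fold change −0.71, SE 0.117, adjusted p = 0.000154). The cytokine receptor genes Il1r1, Tnfrsf1a and Il4ra rose by 0.53, 0.36 and 0.46 on the log2 scale. The falls of this list numbered 1 without isoproterenol 4 or vehicle 2 and 5 without isoproterenol 1.

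Interferon-stimulated genes rose in part. Of 61 genes 10 rose and none fell, with a median of 0.28 and 54 of 61 values above 0. No member was lower at an unadjusted p under 0.05 or with DESeq2. Ifitm3, a membrane protein that limits virus entry, rose (log2 fold change 0.32, SE 0.0711, adjusted p = 0.00381), as did the GTPase gene Gbp9 (log2 fold change 0.45, SE 0.109, adjusted p = 0.00873). The rises numbered 3 without isoproterenol 4, 5 without isoproterenol 1 or 3 or vehicle 1 or 3, 6 without vehicle 4, 18 without isoproterenol 2, and 16 in limma-voom with quality weights. None of 31 antigen presentation genes passed (4 were higher and none lower at an unadjusted p under 0.05, and DESeq2 called none).

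Lysosome genes rose, cathepsins among them. Of 71 autophagy and lysosome genes 14 rose and 2 fell, with a median of 0.10, and 10 to 16 rose without single libraries. The falls numbered 4 without the low-count filter. Ctsd, the aspartic protease cathepsin D, measured 222, 166, 206, 186 and 219 CPM with vehicle and 258, 261, 285, 273 and 298 CPM with isoproterenol, and its groups did not overlap (log2 fold change 0.46, SE 0.075, adjusted p = 0.000143). Ctsh, Ctsz and Ctsc rose by 0.41 on the log2 scale, Lipa, the acid lipase, by 0.35 and Lgmn, legumain, by 0.32. The falls were Wipi1, which binds phosphoinositides in autophagy (−0.39, SE 0.0621, adjusted p = 0.000117), and Mitf, a transcription factor of lysosome genes (−0.43, SE 0.0902, adjusted p = 0.00258).

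Macrophage markers were higher beside the immune and lysosome lists. Of 17 markers, none of them at 0, 6 rose and none fell, with a median of 0.37. DESeq2 called none lower, and 2 were lower at an unadjusted p under 0.05. Their sum was 189 to 226 CPM with vehicle and 214 to 334 CPM with isoproterenol, so that the groups overlapped. Mrc1 rose (log2 fold change 0.52, SE 0.091, adjusted p = 0.000336), as did Lgals3, galectin-3 (log2 fold change 0.81, SE 0.146, adjusted p = 0.000499), while Cd163 (log2 fold change −0.22, SE 0.145, adjusted p = 0.388) and Timd4 (log2 fold change −0.57, SE 0.237, adjusted p = 0.137), markers of resident macrophages, did not pass. The rises numbered 2 without vehicle 4, 3 without isoproterenol 1 or vehicle 3, and 3 in a fit of the WT libraries alone. Of 7 tested neutrophil and mast cell markers 3 rose at low level and none fell, also at an unadjusted p under 0.05 and with DESeq2, with sums of 6.52 to 8.04 CPM with vehicle and 7.68 to 12.6 CPM with isoproterenol. The mast cell tryptase gene Tpsb2 was the call that held throughout (1.08, SE 0.244, adjusted p = 0.00477), and without vehicle 4 it was the only one. The part of these markers in the immune and lysosome rises was not tested.

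**Figure D5:**
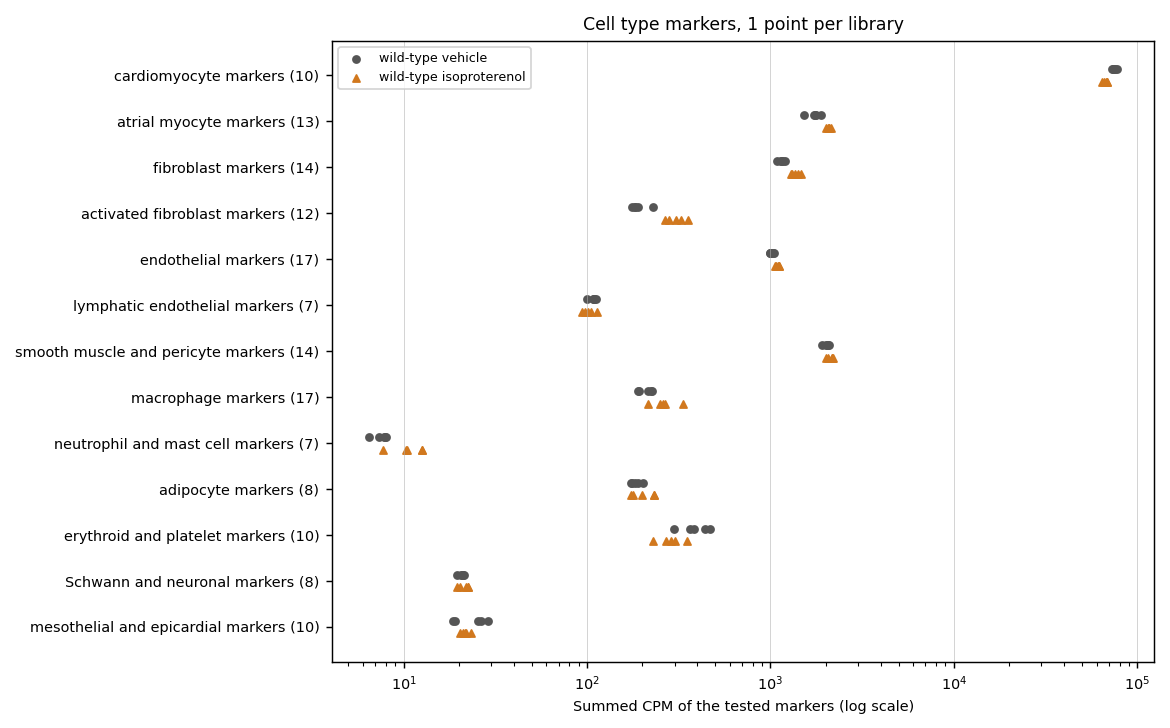
Summed CPM of the tested markers of each cell type (number in brackets) in each WT library, on a log scale. Circles are vehicle and triangles isoproterenol libraries. Fibroblast, activated fibroblast and endothelial sums lie higher with isoproterenol without overlap, atrial sums do so only with Pam, cardiomyocyte sums lie lower, and macrophage sums overlap.

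Endothelial, smooth muscle and pericyte markers included rises, and no adipocyte or mesothelial marker passed. Of 17 endothelial markers 4 rose, and the sum was 991 to 1044 CPM with vehicle and 1058 to 1118 CPM with isoproterenol. Pecam1, an adhesion protein of endothelial junctions, was called in all alternatives (0.29, SE 0.0613, adjusted p = 0.00297), and the rises numbered 2 without isoproterenol 1 or 3 or vehicle 2, 4 or 5. No endothelial marker fell, although 2 were lower at an unadjusted p under 0.05 and DESeq2 called 1. None of 8 adipocyte and none of 10 mesothelial markers passed, with DESeq2 as well (at an unadjusted p under 0.05, 1 mesothelial marker was higher). Of 14 smooth muscle and pericyte markers 3 rose, Rgs5, Vtn (0.43) and Pdgfrb (0.28), the last not without isoproterenol 2 or 4 or vehicle 2, and 1 fell, with falls of 0 without isoproterenol 1, 3, 4 or 5 or vehicle 2, 3, 4 or 5 and 0 to 1 under other settings. Of 10 erythroid and platelet markers Pf4 rose (0.69, SE 0.162, adjusted p = 0.00639). The 4 globin genes had log2 fold changes of −0.41 to −0.48 without passing, such as Hba-a1 (log2 fold change −0.41, SE 0.19, adjusted p = 0.208). At an unadjusted p under 0.05, 5 of the 10 were lower, and DESeq2 called 2 lower.

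Antioxidant and hypoxia genes changed in both directions, and heat shock genes that passed were lower apart from 1, beside 4.64% of all tested genes higher and 4.12% lower. Of 55 heat shock protein genes 7 fell and 1 rose, with a median of −0.11, and the falls numbered 11 with 2 surrogate variables. Hspb6, the small heat shock protein Hsp20, measured 334, 447, 320, 327 and 331 CPM with vehicle and 239, 205, 241, 236 and 245 CPM with isoproterenol, and no library of one group entered the range of the other (log2 fold change −0.59, SE 0.0872, adjusted p = 4.72e-05). Hspd1, the mitochondrial chaperonin Hsp60, fell (log2 fold change −0.39, SE 0.0697, adjusted p = 0.000384). The rise was that of Bag2 (0.35, SE 0.0838, adjusted p = 0.00773), and the rises numbered 2 without isoproterenol 1 and 1 to 2 under other settings. Of 59 NRF2 and antioxidant genes 6 rose and 5 fell. Gpx1, a glutathione peroxidase, measured 20.7, 17.5, 19.4, 19.5 and 20.6 CPM with vehicle and 32.1, 27, 27.8, 27.8 and 28.1 CPM with isoproterenol (log2 fold change 0.54, SE 0.0892, adjusted p = 0.000157). The metallothionein gene Mt2 and the extracellular superoxide dismutase gene Sod3 rose by 1.12 and 0.46, and Mgst3, a microsomal glutathione transferase, fell by 0.43 on the log2 scale. The falls of the list numbered 2 without isoproterenol 1 or 2 or vehicle 5, 3 without isoproterenol 3 or vehicle 1, 2 or 3, and 1 to 5 under other settings.

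Of 37 hypoxia and HIF target genes 6 rose and 3 fell, beside 4.64% of all tested genes higher and 4.12% lower. Ankrd37, a small ankyrin repeat protein, and Hmox1, haem oxygenase, rose by 1.34 and 0.89 on the log2 scale (adjusted p = 0.00272 and 0.00319), and the falls numbered 1 without isoproterenol 3, 4 or 5 or vehicle 2 or 4 and 1 to 4 under other settings. Of 54 unfolded protein response and chaperone genes of the endoplasmic reticulum 3 fell, among them Canx, calnexin (−0.27, SE 0.0639, adjusted p = 0.0058), and none rose. Those falls numbered 1 without vehicle 2 and 1 to 5 under other settings. DESeq2 called none higher, and 5 were higher at an unadjusted p under 0.05. Of 50 p53, senescence and apoptosis genes 4 rose and none fell (2 were lower at an unadjusted p under 0.05, none with DESeq2). Mcl1, an inhibitor of apoptosis, held in all alternatives (0.25, SE 0.0568, adjusted p = 0.00542), and the rises numbered 2 without isoproterenol 1 or vehicle 5. Of 48 proteasome genes 2 fell, about the share of all tested genes that fell, and none rose (2 were higher at an unadjusted p under 0.05, none with DESeq2). The falls were Psme3 (−0.26, SE 0.0626, adjusted p = 0.00899), a call lost with library sizes alone, and Pomp (−0.29, SE 0.0738, adjusted p = 0.0113).

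Few cytosolic ribosomal protein genes passed, while larger shares of translation factors, splicing factors and clock genes fell. Over all tested genes 4.64% rose and 4.12% fell. Of 80 cytosolic ribosomal protein genes 2 fell and none rose, with a median of −0.02 and all values between −0.34 and 0.19. At an unadjusted p under 0.05, 1 was higher, and DESeq2 called none higher. The falls numbered 0 without vehicle 3, 1 without isoproterenol 2, 3 or 4 or vehicle 2, and 0 to 8 under other settings. Of 61 translation factors 5 fell and none rose (3 were higher at an unadjusted p under 0.05, none with DESeq2). Eef1a2, the elongation factor isoform of muscle and nerve, fell (log2 fold change −0.40, SE 0.0756, adjusted p = 0.000722), as did Eif4e, the cap-binding protein (log2 fold change −0.25, SE 0.0606, adjusted p = 0.00773). The falls of translation factors numbered 2 with library sizes alone. Of 61 splicing factors 11 fell and 1 rose, with a median of −0.12. Rbm38, a regulator of RNA stability and splicing, measured 72.7, 74.1, 73.7, 88.7 and 73.5 CPM with vehicle and 48.9, 69.1, 45.2, 45.1 and 54.6 CPM with isoproterenol, with isoproterenol 2 nearest to the vehicle group (log2 fold change −0.54, SE 0.108, adjusted p = 0.00244). Rbm3, a cold-inducible RNA-binding protein, was the rise (0.38, SE 0.0823, adjusted p = 0.00323). The falls numbered 5 without isoproterenol 4, 7 without vehicle 2, and 3 to 15 under other settings. Of 26 clock genes 4 fell, among them Hlf, a transcription factor under clock control (−0.51, SE 0.122, adjusted p = 0.00909). None rose, also at an unadjusted p under 0.05 and with DESeq2.

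Of the other growth and signalling lists, those of insulin and mTOR genes held 2 and 3 genes that passed, and those of Hippo, integrin and CCN genes 5, 4 and 2, beside 8.76% of all tested genes. Of 27 Hippo pathway and YAP target genes 3 rose and 2 fell, with rises of 1 with library sizes alone, and falls of 1 without isoproterenol 3, 4 or 5 or vehicle 2 or 4 and 1 to 2 under other settings. Tead1, a transcription factor that binds YAP, fell (log2 fold change −0.37, SE 0.0725, adjusted p = 0.00104), while Wwtr1, which encodes the coactivator TAZ, rose (log2 fold change 0.31, SE 0.0639, adjusted p = 0.00204). Of 34 insulin, IGF and PI3K genes 1 rose and 1 fell. Foxo3, a forkhead factor that AKT inhibits, was the fall (−0.37, SE 0.0869, adjusted p = 0.00698), and the rises numbered 0 without isoproterenol 3 or vehicle 2 or 3, 2 without isoproterenol 2 or vehicle 4, and 1 to 5 under other settings, and the falls 2 without isoproterenol 2 or vehicle 2 and 1 to 2 under other settings. Of 36 mTOR and amino acid transport genes 2 rose and 1 fell, the amino acid transporter gene Slc43a2 (−0.62, SE 0.126, adjusted p = 0.00196), and the rises numbered 0 without isoproterenol 2, 3 or 4 or vehicle 1, 2, 3 or 5, 1 without isoproterenol 5 or vehicle 4, and 0 to 3 under other settings. Of 24 integrin genes 3 rose and 1 fell, with falls of 0 to 2 under other settings. Itgb2, the beta chain of leukocyte integrins, rose (log2 fold change 0.71, SE 0.164, adjusted p = 0.00644), as did Itga1, a collagen receptor chain (log2 fold change 0.34, SE 0.06, adjusted p = 0.000341). Of 5 CCN genes 2 rose. Ccn5, a secreted matricellular protein, measured 2.45, 1.26, 1.43, 1.6 and 1.53 CPM with vehicle and 4.74, 3.47, 5.05, 5.9 and 3.42 CPM with isoproterenol (log2 fold change 1.47, SE 0.249, adjusted p = 0.000525), and the rises numbered 1 without isoproterenol 3, 4 or 5 or vehicle 2, 4 or 5 and 1 to 2 under other settings.

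Vessel and guidance signals changed in both directions. Of 61 angiogenic ligands and receptors 6 rose and 6 fell. Besides Fgf1, Slit2, a guidance ligand, fell in all alternatives (−0.55, SE 0.117, adjusted p = 0.00264), whereas the rises numbered 1 without isoproterenol 4, 2 without isoproterenol 2 or 3 or vehicle 4 or 5, 3 without vehicle 2 or 3, and 2 to 8 under other settings. The falls numbered 2 without vehicle 4, 3 without vehicle 2, and 2 with library sizes alone. Among the 27 tested semaphorins and plexins 6 fell and 1 rose. Sema4d, a semaphorin that signals through plexin B1, measured 9.28, 11.3, 10.8, 10.9 and 10.8 CPM with vehicle and 5.78, 6.42, 5.95, 5.48 and 6.64 CPM with isoproterenol, with no overlap (log2 fold change −0.82, SE 0.117, adjusted p = 2.61e-05). Plxnb1 and Plxnb2, plexins of the B class, fell by 0.36 and 0.30 on the log2 scale (adjusted p = 0.014 and 0.00487). The call of Plxnb1 was lost without isoproterenol 3 and with 2 surrogate variables, and both plexin calls were lost with library sizes alone. The rises of the class numbered 0 without isoproterenol 3 or 4 or vehicle 1, 2, 4 or 5, 2 without isoproterenol 5, and 0 to 2 under other settings, and the falls 2 with library sizes alone. Of 18 genes of endothelin, renin-angiotensin and natriuretic receptors 4 rose and 4 fell. Edn3, endothelin-3, was counted only 6 to 58 times per WT library and fell (−1.78, SE 0.268, adjusted p = 5.19e-05). Ace, a peptidase of angiotensin, rose by 0.32 on the log2 scale, and the falls of the list numbered 2 without isoproterenol 2, 3 or 4 or vehicle 1 or 4 and 1 to 4 under other settings.

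Classes of genes taken by symbol alone gave a few further groups, beside 4.64% of all tested genes higher and 4.12% lower. Of 16 serpins 5 rose and none fell (1 was lower at an unadjusted p under 0.05, none with DESeq2), with a median of 0.38, and the rises numbered 2 without vehicle 4 and 3 with 2 surrogate variables. Of 35 ABC transporters 4 rose and none fell (5 were lower at an unadjusted p under 0.05, none with DESeq2). Abca1, which exports cholesterol, measured 49, 42.4, 41, 45.5 and 51.3 CPM with vehicle and 65.7, 57, 71, 58.1 and 57.6 CPM with isoproterenol (log2 fold change 0.43, SE 0.08, adjusted p = 0.000653), and Abcg1, which also exports sterols, rose (log2 fold change 0.95, SE 0.162, adjusted p = 0.000276). Of 18 aldehyde dehydrogenases 4 rose and 2 fell, led by Aldh1a3, which makes retinoic acid, at 0.408, 0.559, 0.309, 0.824 and 0.854 CPM with vehicle and 1.73, 1.37, 1.2, 1.34 and 2.1 CPM with isoproterenol (log2 fold change 1.36, SE 0.257, adjusted p = 0.0008). The falls of this class numbered 1 without isoproterenol 3, 4 or 5 or vehicle 2, 3, 4 or 5 and 1 to 2 under other settings. Among 184 solute carriers outside mitochondria 13 rose and 9 fell. The rises of solute carriers numbered 7 without isoproterenol 2, 3 or 4 or vehicle 1, 2 or 4 and 8 with 2 surrogate variables, and the falls 4 without isoproterenol 4 or vehicle 5, 5 without isoproterenol 1, 3 or 5 or vehicle 3, and 2 with library sizes alone. Slc41a2, of the magnesium transporter family, measured 1.63, 1.19, 1.93, 2.47 and 2.25 CPM with vehicle and 3.64, 3.04, 2.75, 4.36 and 2.86 CPM with isoproterenol (log2 fold change 0.81, SE 0.177, adjusted p = 0.00322), and its relative Slc41a1 was lower at 52.9, 54.6, 57.5, 52.7 and 56.3 CPM with vehicle and 45.6, 49.2, 47.3, 44.1 and 46 CPM with isoproterenol (log2 fold change −0.24, SE 0.0611, adjusted p = 0.0123). The latter call was lost with library sizes alone. Of 334 zinc finger genes of the Zfp class 5 rose and 9 fell. Their rises numbered 3 without isoproterenol 3, 4 or 5 or vehicle 1, 2 or 5 and 3 with library sizes alone, and their falls 4 without isoproterenol 4, 5 without vehicle 2 or 4, and 3 to 14 under other settings.

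By annotated gene type, protein-coding genes made up 664 of the rises and 535 of the falls among 12742 tested. The shares over all tested genes were 4.64% higher and 4.12% lower. Their falls numbered 355 without isoproterenol 4 and 245 with library sizes alone. In the annotation class TEC, transcripts that await experimental testing, none of 823 rose and 27 fell. That share of falls lay below the share over all tested genes. The median was −0.11 (24 were higher at an unadjusted p under 0.05, and DESeq2 called 2 higher). The falls of TEC transcripts numbered 9 without isoproterenol 4, 15 without isoproterenol 3 or vehicle 4, and 11 to 37 under other settings. Long intergenic noncoding RNAs had 11 rises and 17 falls among 291, with a median of −0.13, and antisense transcripts 6 rises and 12 falls among 231. The antisense rises numbered 11 in limma-voom with quality weights, and the counts of antisense genes are uncertain, since the sources used here do not give the strand setting of the counting. The lincRNA rises numbered 6 without isoproterenol 4, 7 without vehicle 3, 4 or 5, and 7 with 2 surrogate variables, and the falls 9 without isoproterenol 3 and 29 in limma-voom with quality weights.

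The response in WT was set beside the same contrast in KO hearts, from 10 other libraries of the same fit. Of the 691 genes that rose in WT, 655 had a log2 fold change above 0 in KO and 301 passed there in the same direction, as did 706 of all tested genes (4.75%). Of the 613 that fell in WT, 562 were below 0 in KO and 250 passed, as did 638 of all tested genes (4.29%). Over all tested genes 67.0% had the same sign in both. None of the 1304 passed in the opposite direction. The difference between the responses, tested by an interaction term, passed for 0 of 14878 genes, with 1142 (7.68%) at an unadjusted p under 0.05. DESeq2 called 5, the fit without vehicle 2 and KO isoproterenol 5 called 4, and the fit without a low-count filter 34. Median log2 fold changes of the lists had the same sign for fuel oxidation, at −0.27 in WT and −0.21 in KO for fatty acid oxidation and −0.16 and −0.20 for the citric acid cycle. They were 0.28 in WT and 0.03 in KO for interferon-stimulated genes and −0.44 and 0.36 for erythroid and platelet markers, and these differences were not tested as lists.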

How the data were processed

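The authors deposited 1 table of raw read counts per gene for the 20 libraries of the series. Per the submitters' processing notes HISAT2 2.1.0, featureCounts 1.6.3, R 3.6.0 and limma 3.40.6 were used with the GRCm38 genome. Not given in the sources used here were the strand setting, the treatment of reads with several matches and the annotation release. Of 55335 gene IDs, 55154 were found in GENCODE vM21, which gave symbols, gene types and GRCm38 positions. Mitochondrially encoded genes held 55.5% to 60.8% of counts per WT library.

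Columns were matched to samples by title, and groups were taken from the labels. All 20 libraries of the 4 groups were fitted together in edgeR 4.0.16 (R 4.3.3), with TMM factors, the low-count filter filterByExpr, a robust quasi-likelihood fit with 16 residual degrees of freedom and Benjamini-Hochberg adjustment over 14878 genes. The contrast was isoproterenol minus vehicle in WT, and the KO libraries serve the shared estimate of spread. The common biological coefficient of variation was 0.119. CPM values were computed from the counts with TMM factors. The SE given with edgeR values is the absolute log2 fold change divided by the square root of the quasi-likelihood F statistic. It was not estimated separately by the fit. Replicate libraries differed beyond counting noise, and none was merged. Chi-square per degree of freedom was 55.7 to 64.6 in pairs with WT vehicle 2. Other pairs of WT libraries of 1 group had 4.38 to 19.1. A gene at a few counts per library has a wide counting error, and fold changes of such genes are less certain. Members, lists and classes were chosen with earlier results of these data known. They were 80 gene lists, 41 classes by symbol and 4 lists added after values were seen.

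Genes were named by a rule. It took the 15 rises and 15 falls with the smallest p among changes of at most 1 on the log2 scale, a mean level of 2 or more in log2 CPM and no overlap, up to 6 passing members with the smallest p in each list, and abundant members of lists with few calls. Other genes named in the text were chosen as known members of a pathway or after their values were seen, and a few genes are not reported here. Alternatives were DESeq2 1.42.0, limma-voom (limma 3.58.1) with and without quality weights, RLE or upper quartile factors or library sizes alone, no filter or at least 10 counts in 10 libraries, no mitochondrially encoded genes, the WT libraries alone, 2 surrogate variables (sva 3.50.0), leaving out each WT library, and leaving out WT vehicle 2 and KO isoproterenol 5 together. An adjusted p that DESeq2 did not give was left missing. The test was run on simulated counts for 14733 genes, of which 100 were changed 1.5-fold and 100 changed 2-fold. It recovered 70% and 90% of them and made 163 calls, 3 of them false. The changed genes were drawn only from those above a floor of mean counts, and no simulated library stood apart. Changes under 1.5-fold, the size of most calls here, were not simulated, so these rates do not describe them. Promoter and motif counts used RefSeq windows for GRCm38.p6. Figures were drawn with matplotlib 3.10.9.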

Additional observations from a re-analysis of the deposited data

Results flagged for a closer look

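Among 60 groups of 5 WT libraries looked at, those of the 30 genes with the clearest moderate changes, 5 held 1 library far from the other 4, with a gap above 0.71 of the group's range. In independent groups of normal values taken at random, about 1 in 20 would pass this bound. These genes were chosen for a small p and no overlap and share the same libraries, so that rate does not apply directly. Ckb was lowest in WT vehicle 2, at 14.5 CPM, the library that also stood apart in Gm42418 and Lars2. Arpc3 was lowest in WT isoproterenol 2, at 33.1 CPM, and Paqr9 in WT isoproterenol 4, at 24 CPM. Hadh was highest in WT isoproterenol 5, at 137 CPM, and Fbp2 in WT isoproterenol 1, at 7.39 CPM. All 5 genes were called in each of the 22 alternatives, those without these libraries included.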

How the results depend on the processing

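Rises numbered 466 to 644 and falls 398 to 602 when single WT libraries were left out, with the fewest rises without vehicle 4 and the fewest falls without isoproterenol 4. With library sizes alone 296 genes fell and 561 rose, so that rises made up 65.5% of calls in place of 53%, and the median log2 fold change of all genes was 0.04. The difference between the WT and KO responses passed for 5 genes in DESeq2, 4 without WT vehicle 2 and KO isoproterenol 5, 34 without the low-count filter, and 0 in all fits that left out 1 WT library; the cause was not tested. Of 409 named genes that passed, 238 were called in all 22 alternatives. Lars2 was the 1 that reversed, at 0.29 on the log2 scale with 2 surrogate variables, against −3.30, and WT vehicle 2 held 581 CPM of it. No paired analysis was possible because the replicate numbers follow accession order and pair no samples. Depth limits genes at low level, such as Edn3, which was counted 6 to 58 times per WT library.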

Other observations

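Liver X receptors and their usual target genes, which export and remodel cholesterol, were listed after their values were seen, and no test is given. Of 12 tested genes 8 rose and none fell, with a median log2 fold change of 0.23 (none was lower at an unadjusted p under 0.05 or with DESeq2). Abcg1 and Abca1, which export sterols, rose by 0.95 and 0.43 on the log2 scale, and the desaturase gene Scd2 by 0.47. The rises numbered 4 without isoproterenol 1 or 3 or vehicle 4, 5 without isoproterenol 4 or 5 or vehicle 2 or 3, and 5 with library sizes alone. Macrophage and fibroblast markers were also higher in these libraries, and their part in these rises was not tested.

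Imprinted genes, expressed from 1 parental copy, were listed in the same way. Of 26 tested 7 rose and 1 fell, with a median of 0.12, and without single libraries 5 to 7 rose. The paternally expressed genes Snrpn, Mest and Peg3 rose by 0.90, 0.65 and 0.59 on the log2 scale, and the noncoding RNA genes Meg3, Rian and Mirg of 1 maternally expressed cluster by 0.36, 0.58 and 0.75. The call of Meg3 was lost without isoproterenol 2 or vehicle 3, that of Rian without isoproterenol 3 or 5 or vehicle 3, 4 or 5, and that of Mirg without isoproterenol 4 or vehicle 1 or 5. That of Mest was lost with 2 surrogate variables. The fall numbered 0 without isoproterenol 3 or vehicle 1 or 3, 2 without isoproterenol 2, and 0 to 2 under other settings.

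Genes of pigment cells were also listed after their values were seen, and no test is given. Of 6 tested 2 rose and 1, Mitf, fell, beside 4.64% and 4.12% of all tested genes. Dct and Mlana, which mark melanocytes, rose by 1.40 and 0.96 on the log2 scale, at 15 to 204 and 17 to 123 counts per WT library. Rnu12, a small nuclear RNA of the minor spliceosome, had the smallest p for a difference between the genotypes' responses, at 1.31 in WT and −0.41 in KO on the log2 scale, with an adjusted p = 0.231 in edgeR.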
